A study of Homo sapiens with 6 samples.

Results

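Unnamed loci on chromosome 8 are the rows of the gene-level table that lie on chromosome 8 and carry no RefGene gene symbol, that is, places where the assembly of reads put a transcript but no named gene was attached. There were 38669 of them, out of 39972 rows on chromosome 8 and 375947 unnamed rows among the 406165 rows of the whole table. The remaining 1303 rows on chromosome 8 had a symbol. The choice used only the chromosome and the absence of a symbol, so that number per megabase, length and expression were free to vary. A RefSeq name, but no symbol, was present for 24 of the 38669. Unnamed loci are given here by their position, on GRCh37 (Hs37D5) with starts counted from 1.

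RNA-Seq was performed on 6 samples of PC-3 cells, a long-established line from a human prostate cancer. All cells carried the reverse tetracycline transactivator (rtTA) of the Tet-On system, introduced by retrovirus and selected with G418. A second retrovirus then brought in tdTomato, a red fluorescent protein made from the PGK promoter whether Dox is present or not, and fluorescent cells were sorted. In the 3 samples of the tdTom group this vector held no other gene behind its doxycycline-responsive promoter, while in the 3 of the TTP-tdTom group TTP stood there. Both groups were kept for 4 hours in 300 ng/ml doxycycline (Dox), so that by design they differed by the TTP transgene and by being separately transduced cell populations. TTP, encoded by ZFP36, is an RNA-binding protein that binds AU-rich elements in the tails of mRNAs and promotes their decay.

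Most transcription outside named genes yields low, short or unspliced RNA, such as intergenic transcripts, enhancer RNAs, unannotated ends of known genes and long non-coding RNAs. The long arm of chromosome 8 carries MYC, a transcription factor that drives growth, and its neighbour PVT1, a long non-coding RNA. In prostate cancer the short arm is often lost and the long arm often gained. The table holds no DNA copy number.

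For each group the authors' table gives 1 FPKM value per row (a fragment count corrected for how long the transcript is and for library size), pooled over the samples of that group. The values therefore have no replicate error, no number of fragments and no test here, and every difference between groups below is a difference between a pair of pooled values. A target number of read pairs is given in the methods, whereas the depth obtained cannot be taken from FPKM values, which hold no counts. The epithelial keratins KRT18, KRT8 and KRT19 had FPKM values of 98.2, 20.9 and 60.2 in tdTom and 91.5, 19.1 and 67.1 in TTP-tdTom, and EPCAM had 15.1 and 16.8, while the epithelial cadherin CDH1 was near 0 (0.119 and 0.390). Of the markers of other cells, PTPRC had 1.67 and 0 in a row of the second run and 0.243 and 0.566 in one of the first, COL1A1 4.34 and 4.56 and PECAM1 0.483 and 0.793. ZFP36 had 5.56 in tdTom and 5.54 in TTP-tdTom, so that its own row showed no induction of TTP, and whether fragments of the transgene count at that locus was not analysed here.

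The unnamed loci were spread very unevenly. Of the 38669 loci, 1673 were on the short arm and 36996, or 95.7%, were on the long arm, with the arms separated at the longest stretch without any row, chr8:43742672-46860391. That is 38.2 loci per megabase on the short arm against 372.0 on the long arm, a ratio of 9.73. Because unnamed rows seldom lie inside named ones, the number was also divided by the length outside loci with a symbol, which cover 40.6% of the chromosome. On that scale the short arm had 68.0 and the long arm 603.6 loci per megabase, a ratio of 8.87. Many rows share their start and end with another row, 55.0% on the long arm and 8.55% on the short arm, and over rows alone at their coordinates the ratio was 4.78. With each set of coordinates counted once it was 6.96. Among rows of at least 1000 bases it was 72.3, where the length at shared coordinates is that of the shared region. Among such rows alone at their coordinates it was 18.6. Chromosome 8 had 264.3 unnamed loci per megabase of its whole extent, the highest of chromosomes 1 to 22 and X when every row is counted, followed by chromosome 20 with 222.0, chromosome 14 with 189.3 and chromosome 3 with 177.0. This rank depended on shared coordinates. With each set of coordinates counted once, chromosome 20 had 186.2 and chromosome 8 had 183.0, and over rows alone at their coordinates chromosome 8, with 124.2, came after chromosomes 20 (155.2), 3 (129.5) and 11 (125.5).

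Within the long arm the number changed in steps. On the short arm no step stood at 15 megabases, a border used below. Outside loci with a symbol, the megabase from 10 had 53.5 loci per megabase, and those from 15, 16 and 17 had 38.9, 20.1 and 120.7. The stretches used below were drawn up after the counts had been seen, and serve as a description. The first 15 megabases of the short arm, which hold the tumour suppressor DLC1, had 160 unnamed loci, or 19.0 per megabase outside loci with a symbol. From 15 to 50 megabases, across CLU and FGFR1 and over the gap between the arms to PRKDC and MCM4, there were 1784 loci, or 94.3 per megabase on the same scale. From 50 to 60 megabases the number was low again, with 129 loci, or 20.5 per megabase. From 60 to 70 megabases there were 944, or 168.3 per megabase. From 70 to 145 megabases there were 35408 loci, 91.6% of all unnamed loci on the chromosome, or 762.5 per megabase outside loci with a symbol. The last 1.3 megabases held 244, or 431.2 per megabase.

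The dense stretch from 70 to 145 megabases thus had 40.1 times as many unnamed loci per megabase outside named loci as the first 15 megabases, 37.2 times as many as the stretch from 50 to 60, 8.08 times as many as that from 15 to 50 and 4.53 times as many as that from 60 to 70. Over rows alone at their coordinates these ratios were smaller, 18.4, 17.1, 3.90 and 2.44, and with each set of coordinates counted once they were 27.7, 25.8, 5.75 and 3.38. At the scale of single megabases the borders on the long arm differed in height. At 62 megabases the number was 3 in the megabase before and 119 in the megabase after, or 4.92 and 207.6 per megabase outside named loci. At 50 megabases it was 167 before and 15 after, or 175.1 and 18.2 outside named loci. At 70 megabases it was 39 before and 278 after, but named loci cover 83.5% of the megabase before, and outside them the values were 237.0 and 459.4. Inside the dense stretch the megabase from 99 had 59 loci, with 74.7% of it in named loci and 225.2 per megabase outside them.

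**Figure D1:**
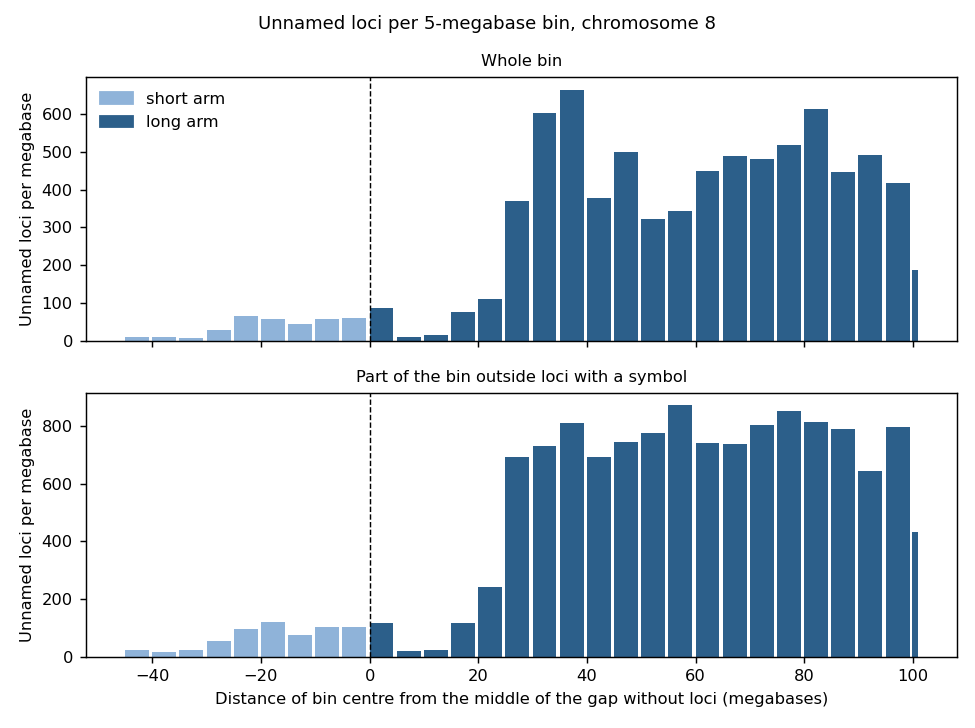
Unnamed loci per megabase in 5-megabase bins of chromosome 8 (vertical axes), over the whole bin (top) and over its part outside loci with a symbol (bottom), against the distance of the bin centre from the middle of the gap between the arms in megabases (horizontal axis, dashed line at 0), with the short arm light and the long arm dark. Outside named loci the 15 bins of the dense stretch lie between 644.0 and 871.4 loci per megabase, while those of the short arm lie between 15.1 and 119.8.

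Single 5-megabase bins ranged from 46 loci at 10 to 15 megabases and 51 at 50 to 55 to 3317 at 80 to 85 megabases. The bin with the second most, 3056, was that of MYC at 125 to 130, and the bin at 75 to 80 had 3013. Inside the dense stretch, the highest bin had 2.06 times the lowest per megabase of the whole bin but 1.35 times the lowest per megabase outside named loci. The 4 dense bins with under 30% of their length in named loci had 2452 to 3317 unnamed loci each, and the 5 bins with 45% or more had 1611 to 2081, but outside named loci the first had 644.0 to 812.4 per megabase and the second 692.6 to 871.4, so that the ranges overlapped. The rows of the dense stretch covered 41.2% of its length, against 2.90% in the first 15 megabases, 7.22% from 15 to 50, 0.608% from 50 to 60 and 6.99% from 60 to 70. The value from 15 to 50 includes 1 row of 1125291 bases at the coordinates of NRG1, listed at 0 in both groups. From 145 megabases to the end 46.2% was covered.

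Bins of this density, with every row counted, were found on few other chromosomes. Across the 580 bins with at least 1 megabase outside named loci of the other chromosomes, the median was 188.3 unnamed loci per megabase outside named loci, with quartiles of 93.6 and 278.1. Without the 21 of these bins that hold no unnamed locus, the median was 197.7, with quartiles of 97.3 and 282.5. Of the 15 dense bins of chromosome 8, 14 were among the 20 highest of the table, and the last ranked 28. With each set of coordinates counted once, 13 were among the 20 highest, and over rows alone at their coordinates 6 were, and the last ranked 81. The 13 bins elsewhere at or above the lowest of them were on chromosomes 14 (5 bins), 10 (4), 17 (2) and 18 (2), the highest with 865.8 at 60 to 65 megabases of chromosome 14. The first 15 megabases and the stretch from 50 to 60 of chromosome 8 were, in contrast, below the lower quartile of the other chromosomes.

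Named genes give a view of both sides of the border at 70 megabases. Of 31 landmark genes, 26 reached 1 FPKM in both groups. Over all rows with a symbol that reached this level, the median FPKM in tdTom was 3.23, 8.22, 5.13 and 18.7 in the stretches before 70 megabases and 10.6 in the dense stretch. The 60 to 70 megabase value rests on 16 rows. It lay above that of the dense stretch, as did the 13.2 over 38 rows from 145 megabases to the end. In both of these stretches unnamed loci were less dense than in the dense stretch. Among the remaining stretches the order of the medians was that of the density of unnamed loci. After 70 megabases, EIF3H, a subunit of translation initiation factor eIF3, had 421.3 in tdTom and 363.4 in TTP-tdTom, and COX6C, a subunit of cytochrome c oxidase, had 284.1 and 297.8. Before it, MCM4, a subunit of the replicative helicase, had 51.8 and 38.7 and the receptor tyrosine kinase gene FGFR1 had 9.79 and 6.93. Of the 26 genes, 23, or 88.5%, were lower in TTP-tdTom, against 80.5% of all rows with a symbol at this level, and 3 were higher (COX6C, TRIB1 and GSDMC). Their median log2 ratio of TTP-tdTom over tdTom was -0.40. Lower by 2-fold or more were TPD52 (126.1 in tdTom and 51.5 in TTP-tdTom), MAL2 (40.9 and 16.5) and FAM49B (68.0 and 25.2), or 11.5% of the 26, against 8.14% of such rows over the table and 13.1% on chromosome 8.

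The coordinates in the table are often shared by several rows, which limits what length means. Of the unnamed loci, 20496, or 53.0%, had the same start and end as another row, and for these the length is that of the shared region and not of the transcript. Sharing rose from 10.6%, 8.91%, 3.88% and 18.3% in the stretches before 70 megabases to 56.3% in the dense stretch, and was 25.8% among unnamed loci on the other chromosomes. Single other chromosomes ranged from 7.21% on X to 55.5% on chromosome 10, with 44.8% on chromosome 14 and 37.7% on chromosome 17. The 18173 loci alone at their coordinates had a median length of 508 bases, with quartiles of 363 and 716 and a range from 66 to 14686. Their median was 386 bases on the short arm, 522 on the long arm and 531 in the dense stretch, and 446 for unnamed loci on the other chromosomes. The longest of them, chr8:20133284-20147969, had an FPKM of 0.031 in tdTom and 0.170 in TTP-tdTom. The next, chr8:144361525-144370164, was 8640 bases long and had 1.01 and 0.746. Counted with shared regions, the 5 longest unnamed rows were those at the coordinates of NRG1 (1 row, listed at 0 in both groups), TRAPPC9 (2 rows) and SAMD12, where the last 2 places were shared by 61 unnamed rows with the same start and end.

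The table gives no strand, but its rows pass along chromosome 8 in consecutive runs. At named genes with a known strand and a mean of 1 FPKM or more, the highest row was in the first run for 192 of 199 genes on the plus strand and in the second for 182 of 197 on the minus strand. The unnamed loci were split almost equally, 19255 in the first run and 19411 in the second, with 3 in another. Of 6596 pairs of unnamed loci at the same coordinates, 6594 had 1 row in each run, which by the named genes would be 1 on each strand. Of the 6035 pairs above 0 in tdTom in both rows, 50.1% were within 2-fold of each other with a median log2 ratio of -0.01, and of the 6047 in TTP-tdTom, 52.2% were, with a median of 0.00. These shares were not compared with rows at different coordinates. Only 407 unnamed loci, or 1.05%, overlapped a locus with a symbol, and all of these had exactly its coordinates. Of the 1710 rows at the coordinates of a locus with a symbol, 1303 had a symbol themselves and are left out by the choice of rows. The share of 1.05% thus depends on how coordinates and symbols were given to rows. It does not measure how much unnamed transcription overlaps named genes.

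Expression of the unnamed loci was low, and differed far less along the chromosome than their number. Over loci above 0, the median FPKM was 0.596 in tdTom, with quartiles of 0.351 and 0.966, and 0.815 in TTP-tdTom, with quartiles of 0.506 and 1.29. Unnamed loci on the other chromosomes had medians of 0.606 and 0.782. In the dense stretch the medians were 0.592 and 0.811, and in the first 15 megabases, where loci were few, they were 0.896 and 0.801. From 50 to 60 megabases they were highest, 1.13 and 1.32, with loci listed at 0 left out. Loci alone at their coordinates were shorter there, with a median of 326.5 bases against 531 in the dense stretch. At loci of like length, given below, the stretch from 50 to 60 megabases was not the highest in either group. A level of 1 FPKM or more was reached by 8444 unnamed loci, or 21.8%, in tdTom and by 13740, or 35.5%, in TTP-tdTom. Over all rows of the table the shares were 24.9% and 33.9%, and over unnamed loci on the other chromosomes 23.5% and 32.6%.

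**Figure D2:**
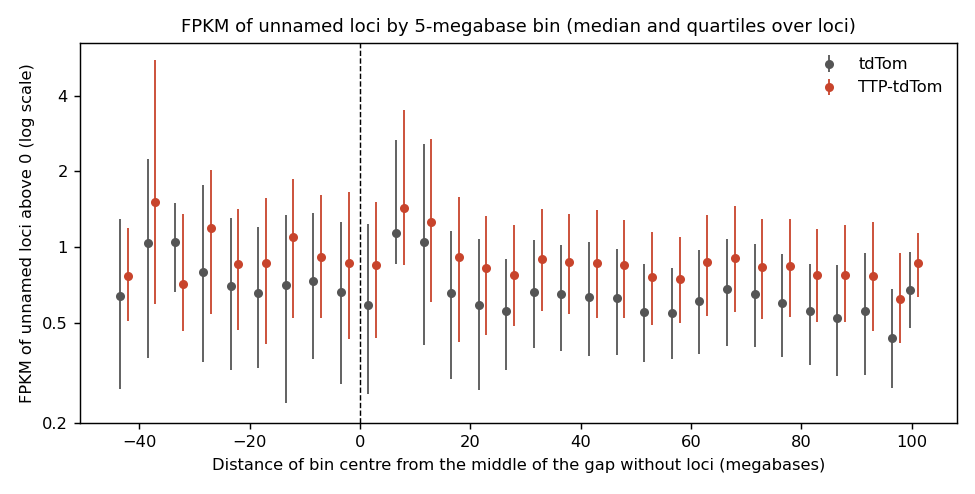
FPKM of unnamed loci above 0 in the group (log axis) in 5-megabase bins against the distance of the bin centre from the middle of the gap between the arms in megabases, with points for the median over loci and bars for the quartiles, tdTom grey and TTP-tdTom red. In the dense bins the medians of TTP-tdTom lie between 0.623 and 0.904 and those of tdTom between 0.436 and 0.683, and the quartiles of the groups overlap in every bin.

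FPKM depended on length. Among loci alone at their coordinates, those under 200 bases had medians of 8.39 in tdTom and 11.0 in TTP-tdTom, and those of 1200 bases or more had 0.537 and 0.680. Very high values occurred at short loci, but not only there. Of 54 loci under 110 bases, 50 reached 100 FPKM in a group, and all 81 unnamed loci with such a value in one group were listed at 0 in the other. The locus chr8:138954879-138955508, 630 bases long and at coordinates shared by 2 rows, alone held 94.2% of the summed tdTom FPKM of all unnamed loci on the chromosome, and 2 loci held 93.9% of the sum in TTP-tdTom. Sums and means over unnamed loci are for this reason not given.

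An FPKM of exactly 0 in a group was less frequent on chromosome 8 than elsewhere. Above 0 in TTP-tdTom and listed at 0 in tdTom were 2760 loci, or 7.14%, against 13.6% of all rows of the table, 14.4% of all unnamed rows and 2.76% of rows with a symbol. Above 0 in tdTom and listed at 0 in TTP-tdTom were 2517, or 6.51%, against 12.3% of all rows, 13.1% of unnamed rows and 2.55% of rows with a symbol. Other chromosomes came near these values. The lowest shares of unnamed loci among them were 9.22% in TTP-tdTom alone (chromosome 10) and 8.21% in tdTom alone (chromosome 17). Only 7 unnamed loci were listed at 0 in both groups. The shares were larger in the stretches before 70 megabases than in the dense stretch. Above 0 in TTP-tdTom alone were 33.1% of loci in the first 15 megabases, 26.4% from 15 to 50, 31.8% from 50 to 60 and 16.5% from 60 to 70, against 5.74% in the dense stretch. In tdTom alone the shares were 26.3%, 22.6%, 37.2% and 17.9%, against 5.24%. In the last 1.3 megabases, which are less dense, they were lower still, 2.05% and 0%.

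Since longer loci are less often at 0, the same was counted at loci of like length, those of 300 to under 500 bases alone at their coordinates. In these, 28.3%, 29.7%, 37.5% and 23.8% of loci in the stretches before 70 megabases were listed at 0 in tdTom, against 11.0% in the dense stretch and 20.2% on the other chromosomes. In TTP-tdTom the shares were 32.6%, 22.5%, 37.5% and 18.1%, against 9.54% and 17.7%. Over the whole of chromosome 8 they were 14.2% in tdTom and 11.9% in TTP-tdTom. The lowest on another chromosome were 16.0% in tdTom (chromosome 17) and 13.1% in TTP-tdTom (chromosome 20). The first and the third stretch have few such loci, 46 and 48. The median FPKM of this length class in the dense stretch was 0.738 in tdTom and 1.05 in TTP-tdTom, and on the other chromosomes 0.715 and 0.960. In the stretches before 70 megabases the class medians were 0.896, 0.711, 0.814 and 0.665 in tdTom. In TTP-tdTom they were 0.803, 0.992, 1.03 and 1.06.

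**Figure D3:**
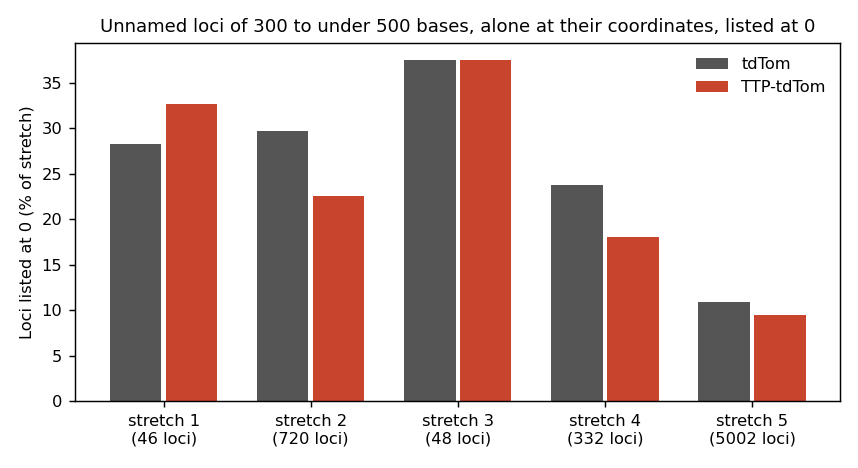
Percent of unnamed loci of 300 to under 500 bases, alone at their coordinates, that were listed at 0 (vertical axis) in tdTom (grey) and TTP-tdTom (red), with the number of loci under each pair of bars. Stretches 1 to 5 (horizontal axis) run from 0 to 15, 15 to 50, 50 to 60, 60 to 70 and 70 to 145 megabases, and the last has the lowest share in both groups, 11.0% and 9.54%.

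At the 33385 unnamed loci above 0 in both groups, or 86.3%, the median log2 ratio of TTP-tdTom over tdTom was 0.52, with quartiles of -0.52 and 1.54. The median was 0.48 at unnamed loci on the other chromosomes and 0.37 over all rows. At 2-fold or more, 12426 loci, or 37.2%, were higher in TTP-tdTom, against 37.4% of all rows above 0 in both groups, 39.8% of unnamed rows and 12.8% of rows with a symbol. At 2-fold or more, 5925, or 17.7%, were lower, against 22.6%, 23.8% and 10.8%. The share of higher loci was thus near the background of the table. In the 15 dense bins the median log2 ratio lay between 0.36 and 0.63, and in the sparse bins with few loci it varied from -0.99 to 1.32.

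The ratio depended on expression level and length, and its sign was not the same at all levels. At the 2239 unnamed loci that reached 1 FPKM in both groups, the ratio had a median of 0.095 on the log2 scale, against 0.01 at such loci on the other chromosomes. At the 201 that reached 2 FPKM in both it was -0.11, and at the 23 that reached 5 FPKM it was -0.49. Rows with a symbol that reached 1 FPKM in both groups had a median of -0.24 over the table and -0.28 on chromosome 8. Among loci alone at their coordinates and above 0 in both groups, the median by length was -0.41 under 200 bases, 0.86 from 200 to under 300, 0.80 from 300 to under 500, 0.67 from 500 to under 800, 0.47 from 800 to under 1200 and 0.33 from 1200 bases on.

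Single unnamed loci spanned a wide range of values. The locus chr8:29525457-29527273 on the short arm was 1817 bases long and alone at its coordinates, and had an FPKM of 88.6 in tdTom and 70.4 in TTP-tdTom. The other 4 with the highest mean FPKM among loci of at least 1000 bases each had a value in a single group. These were chr8:77493627-77495215 (1772 in tdTom), chr8:98194355-98196191 (128.8 in tdTom), chr8:104481873-104483319 (226.8 in TTP-tdTom) and chr8:86878116-86880810 (116.2 in TTP-tdTom), each at coordinates shared by 3 rows and listed at 0 in the other group.

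Among loci that reached 1 FPKM in both groups, chr8:126388193-126388727 had the highest ratio, 1.15 in tdTom and 24.9 in TTP-tdTom. It lies between NSMCE2, a SUMO ligase gene, and TRIB1, a pseudokinase gene. The next was chr8:111651118-111651291 with 1.00 and 21.2, followed by 3 loci under 200 bases that were 12.5 to 13.1 times higher. The lowest ratios were at chr8:83920546-83922171, with 18.5 in tdTom and 1.01 in TTP-tdTom, and chr8:101823175-101823864, with 20.6 and 1.29. Both of these and the locus with the highest ratio share their coordinates with other rows, all of them under 1 FPKM in both groups. Another 3 loci under 200 bases were 11.9 to 12.6 times lower. None of these 10 loci overlapped a locus with a symbol, and 7 of them were shorter than 200 bases, the length class with the highest median FPKM.

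Many rows at single coordinates were also seen. At 24 coordinates, 23 of them after 70 megabases, 10 or more unnamed rows shared a start and end, 648 rows in all, and 16 of the 24 had no row with a symbol. The most, 76 rows, were at chr8:77054006-77219753, of which 75 were in the second run, with a median FPKM of 1.13 in tdTom and 1.10 in TTP-tdTom. Beside it, chr8:77318135-77485152 had 72 rows with 0.784 and 1.34 and a highest row of 19.5 in tdTom and 17.3 in TTP-tdTom. The gene RIPK2, a kinase of innate immune signalling, shared its coordinates with 64 unnamed rows, all in the second run, with medians of 1.22 and 1.31. The median log2 ratio of the rows was below 0 at 8 of the 24 coordinates and above 0 at 16. The sets named next were chosen after their values were seen, and over all rows above 0 in both groups 58.2% were higher in TTP-tdTom and 41.8% lower. At chr8:80197785-80304263, 16 of 19 rows above 0 in both groups were lower in TTP-tdTom, the highest with 28.96 in tdTom and 14.5 in TTP-tdTom. At chr8:142263294-142318566, 16 of 18 rows were higher in TTP-tdTom, with medians of 0.508 in tdTom and 1.28 in TTP-tdTom.

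MYC lies at chr8:128748248-128754770 in the dense stretch. Its row in the first run had an FPKM of 54.9 in tdTom and 39.7 in TTP-tdTom, and a row at the same coordinates in the second run had 0.873 and 1.05. Within 5 megabases on either side there were 5068 unnamed loci, or 506.5 per megabase and 793.0 per megabase outside named loci, near the 762.5 of the dense stretch as a whole. In windows of 1 megabase the number ranged from 192 to 786, and outside named loci from 613.4 per megabase at 4 to 5 megabases downstream to 922.3 at 2 to 3 megabases upstream. The windows next to MYC had 799.6 upstream and 773.1 downstream, between these limits. The median FPKM per window was 0.481 to 0.605 in tdTom and 0.718 to 0.849 in TTP-tdTom.

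**Figure D4:**
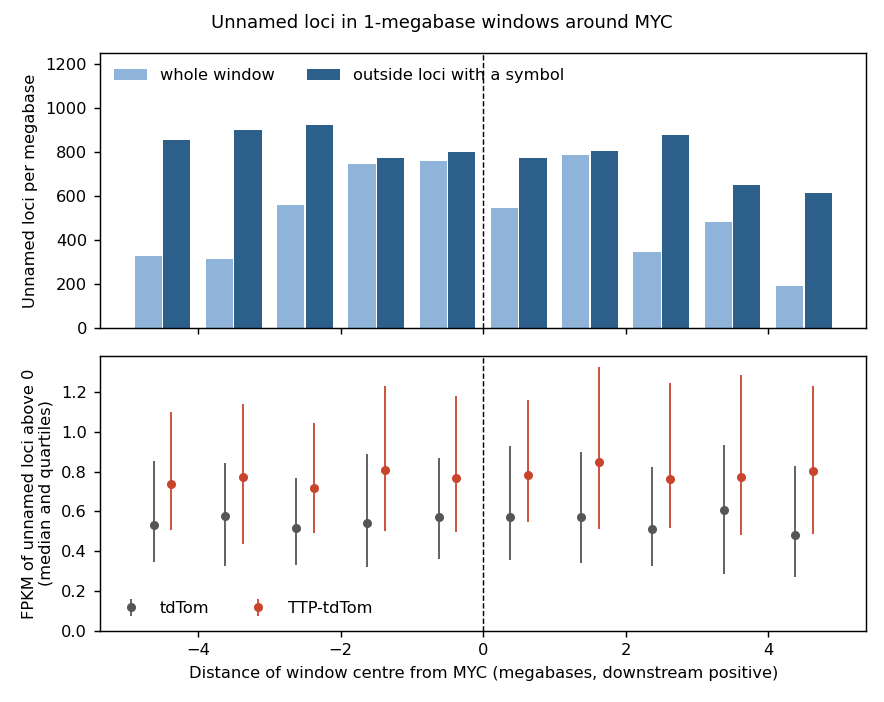
Unnamed loci per megabase in 1-megabase windows (top, whole window light and part outside loci with a symbol dark) and their FPKM in tdTom (grey) and TTP-tdTom (red, bottom, points for the median over loci above 0 and bars for the quartiles), against the distance of the window centre from MYC in megabases. Outside named loci the windows beside MYC, with 799.6 and 773.1 per megabase, are neither the highest nor the lowest of the 10.

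Within 500 kilobases of MYC there were 557 unnamed loci, 392 upstream and 165 downstream, and 0 overlapped MYC itself. PVT1 covers 307.9 kilobases of the downstream side, and these counts are not divided by the length outside named loci. The nearest ended 122 bases upstream of MYC and started 39 bases downstream of it. The upstream neighbour in the run of MYC, chr8:128747009-128748125, had an FPKM of 1.19 in tdTom and 1.31 in TTP-tdTom. The downstream neighbour, chr8:128754810-128759154, had 0.410 and 0.395 in the run of MYC and 0.768 and 0.764 in the other run. All of these were far below MYC. Above 0 in both groups were 507 of the 557 loci, of which 317, or 62.5%, were higher in TTP-tdTom, against 63.7% of such unnamed loci on the chromosome and 58.2% of all such rows. A level of 1 FPKM or more was found at 265 in a group and at 27, or 4.85%, in both, against 5.79% of all unnamed loci on the chromosome. By group, 19.7% reached it in tdTom and 32.7% in TTP-tdTom, against 21.8% and 35.5% of all unnamed loci on the chromosome.

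Of the 27, 10 were at PVT1 and the other 17 at other coordinates. The locus chr8:128582315-128582454, which is 140 bases long, had the highest values of the latter, 28.4 in tdTom and 36.0 in TTP-tdTom. The longest unnamed locus alone at its coordinates in this region, chr8:128301271-128307609, is 6339 bases long and had 2.63 in tdTom and 2.64 in TTP-tdTom. At chr8:128426476-128427319, just upstream of POU5F1B, 1 of 2 rows had 1.28 in tdTom and 9.13 in TTP-tdTom and the other had 0.515 and 0.321. At chr8:128735359-128736738, upstream of MYC, 1 of 3 rows had 5.03 and 1.47, while the others had 0.742 and 1.22 and 0.403 and 0.510.

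PVT1, at chr8:128806723-129114608, had an FPKM of 30.5 in tdTom and 23.3 in TTP-tdTom in its row of the first run. Its row in the second run had 0.370 and 0.638. All in the first run, like the higher rows of PVT1 and MYC, 13 unnamed rows stood at these coordinates. Their FPKM ranged from 1.41 to 24.8 in tdTom with a median of 4.02, and from 0.257 to 5.62 in TTP-tdTom with a median of 2.03. In TTP-tdTom 12 of the 13 were lower, 9 of them by 2-fold or more, where 36.3% of the unnamed loci above 0 in both groups on the chromosome were lower and 17.7% were lower by 2-fold or more. The share of lower loci was 43.3% at unnamed loci that reached 1 FPKM in both groups, 55.7% at 2 FPKM and 69.6% at 5 FPKM, and 80.3% at rows with a symbol on the chromosome that reached 1 FPKM. The median log2 ratio of the 13 was -1.13. The highest row had 24.8 in tdTom and 5.54 in TTP-tdTom and another had 4.02 and 0.257, while a single row was higher in TTP-tdTom, with 1.41 and 5.62. The rows share 1 region and are not independent of each other, and the ratio of the PVT1 row in the first run was -0.39 on the log2 scale. Which part of the region each row stands for cannot be read from the shared coordinates.

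**Figure D5:**
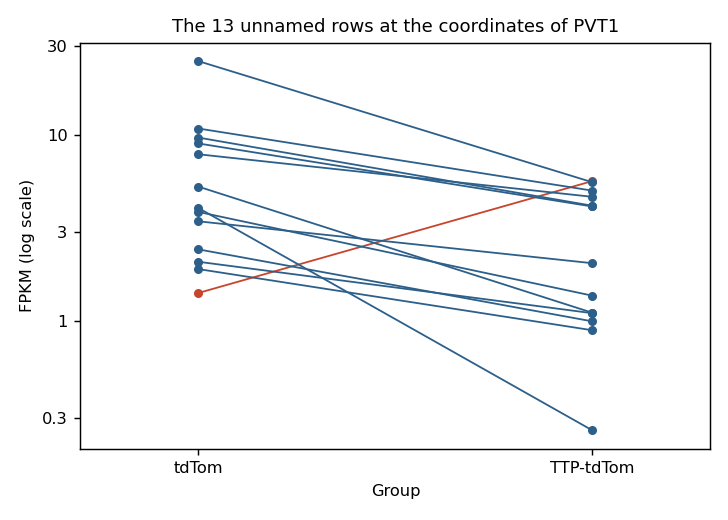
FPKM (log axis) in tdTom and TTP-tdTom of the 13 unnamed rows at the coordinates of PVT1, with a line joining the values of each row, blue where TTP-tdTom was lower and red where it was higher. Of the lines, 12 go down, the steepest from 4.02 to 0.257, and 1 goes up, from 1.41 to 5.62.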

How the data were processed

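Strand-specific paired-end RNA-Seq of PC-3 cells (3 tdTom and 3 TTP-tdTom samples) was aligned to Hs37D5, and TopHat2 2.0.13 and Cufflinks 2.2.1 are named in the submitters' processing notes. The FPKM values were computed by the authors and deposited as 1 value per group and row, so no replicate values were used. The columns of the authors' own comparison (fold changes, test statistics, p-values and q-values) were not used. From the table, rows on chromosome 8 with no symbol were counted by start in 5-megabase bins, and the length outside loci with a symbol was taken from the union of those loci. An FPKM of 0 was kept as 0, and ratios were taken without a pseudocount over rows above 0 in both groups. Strand of named genes was taken by name from GENCODE release 29, and no coordinate of that annotation was used.

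The members and lists were chosen with earlier results of these data known. Loci named in the text were the 5 with the highest mean FPKM among those of at least 1000 bases, the 5 longest, the 5 with the highest and the 5 with the lowest ratio among those that reached 1 FPKM in both groups, those within 500 kilobases of MYC that reached it in either group, the bins with most and fewest, and genes from a list of landmarks. A gene of that list was left out of all counts and is not reported here. Loci alone at their coordinates, the nearest loci to MYC, the loci with many rows and the rows at PVT1 were added after the values were seen. The functions were tested on simulated tables. The scripts ran in Python 3.11.15 (pandas 2.3.3, numpy 2.4.6, matplotlib 3.10.9). Alternatives were bin widths of 1 and 10 megabases, minimum lengths, minimum FPKM values, pseudocounts and centring.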

Additional observations from a re-analysis of the deposited data

How the results depend on the processing

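Of 48 alternatives, 27 stayed within the set limit, 21 moved further and 0 reversed direction. Numbers per megabase, lengths, FPKM medians and shares have no direction to reverse. Only the alternatives for the median log2 ratio and for the ratio of the arms could have done so. Of the 11 results, the share of unnamed loci overlapping a locus with a symbol (1.05%) had no alternative. The limit was not 1 fold for every result. A share of 8.15% for 6.51% counted as moved, while a ratio of long to short arm of 6.96 for 9.73 did not. No minimum FPKM above 1 was among the alternatives, and at the higher minimums given above the median log2 ratio was below 0. With loci of at least 1000 bases, the number per megabase was 112.0 in place of 270.1 (the gap left out), the densest bin 313.2 in place of 663.4, the ratio of long to short arm 72.3 in place of 9.73, and the MYC region 218.5 in place of 506.5. For rows at shared coordinates this length is that of the shared region. Over loci alone at their coordinates, chosen after seeing the data, the ratio of long to short arm was 4.78, and 18.6 at 1000 bases or more. Outside loci with a symbol, an alternative chosen after seeing the data, the number was 450.2 and that of the MYC region 793.0. The median length was 841 bases over all loci and 508 over those alone at their coordinates, also chosen after seeing the data. The share above 0 in TTP-tdTom alone, 7.14%, was 3.16% at 500 bases or more, 2.18% at 1000 or more, 10.0% with an FPKM up to 0.1 taken as 0 and 14.2% in the added class of 300 to under 500 bases. That in tdTom alone, 6.51%, was 2.98%, 2.00%, 8.15% and 11.9%. The median log2 ratio of 0.52 was 0.095 at loci that reached 1 FPKM in both groups, 0.20 with a pseudocount of 1, 0.76 when centred on expressed loci with a symbol and 0.80 in the added length class, and the cause was not tested. No paired analysis was possible because the table holds 1 value per group, and for the same reason leaving out each replicate was not run. FPKM values hold no counts, and the depth reached was not analysed here, so an FPKM of 0 is given no upper limit.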
